A study of Mus musculus with 7 samples.

Results

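Abhd2, Rbm45, Pam, Slc39a1, Spry2, B4galt1, Nfia, Kdm6b, Cbx3 and Supt16 are 10 of the 27998 genes counted in single cells of the mouse mammary gland. They were chosen by their counts in young mice, in which they had come out high in Luminal-HS-AV cells when these were compared with the other luminal classes. Their level in HS-AV cells against HS and AV cells is therefore given as a description, with no test. Detection of the genes in single HS-AV, HS and AV cells of young mice uses the same counts and is a description too. Measures that the choice did not use are the aged against young mice in other cell types and the deposited cell-cycle phase.

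The ducts and alveoli of the mammary gland are lined by luminal cells, with contractile myoepithelial cells around them. Luminal hormone-sensing (HS) cells carry the receptors for estrogen, progesterone and prolactin, and luminal alveolar (AV) cells carry the program of milk production. The cells named HS-AV by the authors showed markers of both. The 10 genes belong to unrelated families. Abhd2 is a serine hydrolase of the alpha/beta hydrolase fold that is known in sperm as a lipase activated by progesterone. Pam amidates the C-terminus of secreted peptides, Slc39a1 (ZIP1) carries zinc into the cell, and Spry2 is a feedback inhibitor of growth factor signaling through Ras and ERK. B4galt1 is the galactosyltransferase that makes lactose together with alpha-lactalbumin. Nfia is a transcription factor of the nuclear factor I family, Kdm6b removes repressive methyl marks from histone H3, Cbx3 (HP1 gamma) binds methylated histone H3, Supt16 is a subunit of the FACT histone chaperone, and Rbm45 is an RNA-binding protein.

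Cells came from the #4 mammary glands, lymph nodes removed, of 3 young mice (3 to 4 months, Young A to C) and 4 aged mice (13 to 14 months, Aged A to D). All 7 were nulliparous females of mixed background (FVB, 129 and C57BL/6J), taken in diestrus. No agent was given, and 1 library was made from the dissociated cells of each mouse. Effects of age and of library processing cannot be told apart. The 13684 cells had 2714 to 17158 unique molecular identifiers (UMIs, each standing for 1 captured mRNA) and 6652599 to 16999625 UMIs per mouse. The 10 genes together had 48390 UMIs. HS-AV cells numbered 273, with 12, 130 and 115 in Young A, B and C, and 6, 6, 0 and 4 in Aged A, B, C and D. Their median depth was 4980 UMIs, against 7277 in HS and 6632 in AV cells. Scrublet called 73 cells (0.533%) doublets, of which 0 were HS-AV cells. A cell barcode also found in another library was carried by 202 cells, of which 4 were HS-AV cells.

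The HS-AV name was checked against 5 HS markers (Prlr, Pgr, Esr1, Cited1 and Prom1) and 6 AV markers (Mfge8, Trf, Csn3, Wfdc18, Ltf and Elf5). Summed HS markers in HS-AV cells reached 1919 to 2739 CPM (UMIs of a gene per 1000000 UMIs of the same mouse and cell type) in young mice and 1086 to 2602 CPM in aged mice. Both ranges overlapped that of young HS cells, 2175 to 2549 CPM. Single genes led the sums, with means over both ages in HS-AV cells of 1443 CPM for Prlr and 1160 CPM for Wfdc18. Cited1 (404 against 650 CPM) and Prom1 (58.1 against 68.0 CPM) averaged lower in HS-AV than in HS cells, and the other HS markers higher. Each AV marker averaged between HS and AV cells, with Elf5 (21.9 CPM) far nearer HS (11.9 CPM) than AV cells (274 CPM). Summed AV markers in young HS-AV cells, 2964 to 5915 CPM, lay between those of young HS cells (452 to 895 CPM) and young AV cells (15257 to 22542 CPM). In aged HS-AV cells they were 304 to 513 CPM, within or below the range of HS cells, so the 16 aged cells were not above HS cells in the AV markers. For this reason levels in HS-AV cells are those of young mice unless both ages are named.

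All 10 genes are protein coding. GENCODE vM21 on GRCm38 places Abhd2 on chromosome 7 (79273199 to 79365508, plus strand), Pam on chromosome 1 (97795114 to 98095646, minus), Slc39a1 on chromosome 3 (90248172 to 90253612, plus) and Spry2 on chromosome 14 (105891947 to 105896819, minus). B4galt1 and Nfia both lie on chromosome 4, and Supt16 lies on chromosome 14 with Spry2. The promoter stretches of the genes on which the results below turn are shown because these genes were high together in 1 cell class or moved with age in another. They are the bases of the RefSeq promoter (GRCm38.p6) that lie before the start and overlap no annotated exon, on the strand of the gene. Capitals mark a GC box (GGGCGG) or a CCAAT box (CCAAT) on either strand.
Abhd2, chr7:79273036-79273198, plus strand: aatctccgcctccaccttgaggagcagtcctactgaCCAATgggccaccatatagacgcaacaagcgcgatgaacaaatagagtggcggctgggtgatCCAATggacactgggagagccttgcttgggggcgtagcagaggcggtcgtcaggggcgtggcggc
Slc39a1, chr3:90247942-90248171, plus strand: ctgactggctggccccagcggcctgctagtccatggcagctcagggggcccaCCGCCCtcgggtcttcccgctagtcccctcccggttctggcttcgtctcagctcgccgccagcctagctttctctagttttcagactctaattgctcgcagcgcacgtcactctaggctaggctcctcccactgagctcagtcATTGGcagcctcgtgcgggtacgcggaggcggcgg
Pam, chr1:98095647-98095896, minus strand: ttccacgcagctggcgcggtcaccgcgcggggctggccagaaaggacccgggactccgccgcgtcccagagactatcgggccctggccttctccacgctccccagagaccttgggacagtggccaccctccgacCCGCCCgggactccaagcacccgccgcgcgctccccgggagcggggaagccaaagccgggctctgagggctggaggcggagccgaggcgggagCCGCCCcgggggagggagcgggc
Spry2, chr14:105896820-105897069, minus strand: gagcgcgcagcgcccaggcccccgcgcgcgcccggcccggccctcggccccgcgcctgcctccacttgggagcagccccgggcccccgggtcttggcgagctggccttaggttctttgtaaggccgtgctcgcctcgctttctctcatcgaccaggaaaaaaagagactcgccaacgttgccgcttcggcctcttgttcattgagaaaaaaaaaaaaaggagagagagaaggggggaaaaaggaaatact
The Abhd2 stretch held the CCAAT box at 2 places, the Pam stretch the GC box at 2 places, the Slc39a1 stretch 1 of each and the Spry2 stretch neither. In the whole 250 bases before the start, the GC box was found in 6 of the genes (Abhd2, Pam, Slc39a1, B4galt1, Cbx3 and Supt16) and in 32.9% of 27025 promoters of all genes. The CCAAT box was found in 3 of the genes (Abhd2, Slc39a1 and Nfia) and in 34.5% of all promoters. GC content of these 250 bases ranged from 44.8% (Nfia) to 75.6% (Pam) among the genes, with a median of 63.6% against 52.0% for all genes. The Nfia promoter used belongs to a RefSeq start far upstream. It ends at 97581942 on chromosome 4, whereas GENCODE starts the gene at 97772734. A promoter of Kdm6b was not used here.

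In young mice, Abhd2 reached 2955, 2942 and 1539 CPM in HS-AV cells of Young A, B and C. The same mice had 152, 152 and 160 CPM in HS cells and 37.5, 169 and 52.5 CPM in AV cells. The mean in HS-AV cells, 2479 ± 814 CPM (SD, n = 3), was 16.0-fold that of HS cells and 28.7-fold that of AV cells. Slc39a1, the zinc importer, had 756, 577 and 306 CPM in HS-AV cells, against 32.2 to 37.9 CPM in HS cells and 21.9 to 73.7 CPM in AV cells. Its mean of 546 ± 226 CPM was 15.3-fold that of HS cells and 13.1-fold that of AV cells. The peptide-amidating enzyme Pam had 216, 556 and 214 CPM in HS-AV cells, with a mean 7.65-fold that of HS cells and 8.38-fold that of AV cells. For these genes, HS-AV cells of every young mouse lay above HS and AV cells of all 3.

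Among the regulators of transcription and chromatin, Nfia reached 306 ± 102 CPM in HS-AV cells (SD, n = 3), 7.85-fold the level of HS cells and 5.40-fold that of AV cells. The HP1 protein gene Cbx3 reached 364 ± 110 CPM, 3.78-fold and 4.30-fold. The histone chaperone gene Supt16 reached 74.6 ± 13.0 CPM, 5.11-fold and 3.67-fold. The demethylase gene Kdm6b reached 340 ± 85.1 CPM, 6.65-fold the level of HS cells but only 2.32-fold that of AV cells. The RNA-binding protein gene Rbm45 had few counts, with 2, 24 and 10 UMIs in HS-AV cells of Young A, B and C. Its mean was 26.3 ± 12.4 CPM, against 0.990 CPM in HS cells and 2.35 CPM in AV cells.

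Spry2, the inhibitor of growth factor signaling, had 81.0, 107 and 116 CPM in HS-AV cells of Young A, B and C, 4.41 to 7.29 CPM in HS cells and 24.2 to 71.9 CPM in AV cells. It was 17.3-fold above HS cells and 2.27-fold above AV cells, so AV cells were the nearer class. B4galt1, the lactose synthase enzyme, had 165 ± 56.0 CPM in HS-AV cells, 4.15-fold the level of HS cells and 5.69-fold that of AV cells. Its level in AV cells (28.9 ± 7.93 CPM), the cells of milk production, was not above that in HS cells (39.6 ± 3.03 CPM). All 10 genes were above both HS and AV cells of the same mouse in each of the 3 young mice, as their choice would give, and the same held for 5.29% of 12737 genes of at least 1 CPM. The smallest margin was that of Kdm6b in Young C, at 1.33-fold over the higher of HS and AV cells, and the largest that of Rbm45 in Young A, at 24.7-fold. Immediate early genes, which rise when tissue is dissociated, summed to 7577 to 11459 CPM in young HS-AV cells, 8007 to 9772 CPM in HS cells and 13946 to 24014 CPM in AV cells. The nuclear transcripts Malat1 and Neat1 summed to 39948 to 55954 CPM in HS-AV cells, above 34914 to 36400 CPM in HS cells. Over both ages, Malat1 alone had 19485 to 43155 CPM in AV cells, a range that overlapped the 35034 to 73551 CPM of HS-AV cells. The part of immediate early or nuclear transcripts in the levels was not tested.

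**Figure D1:**
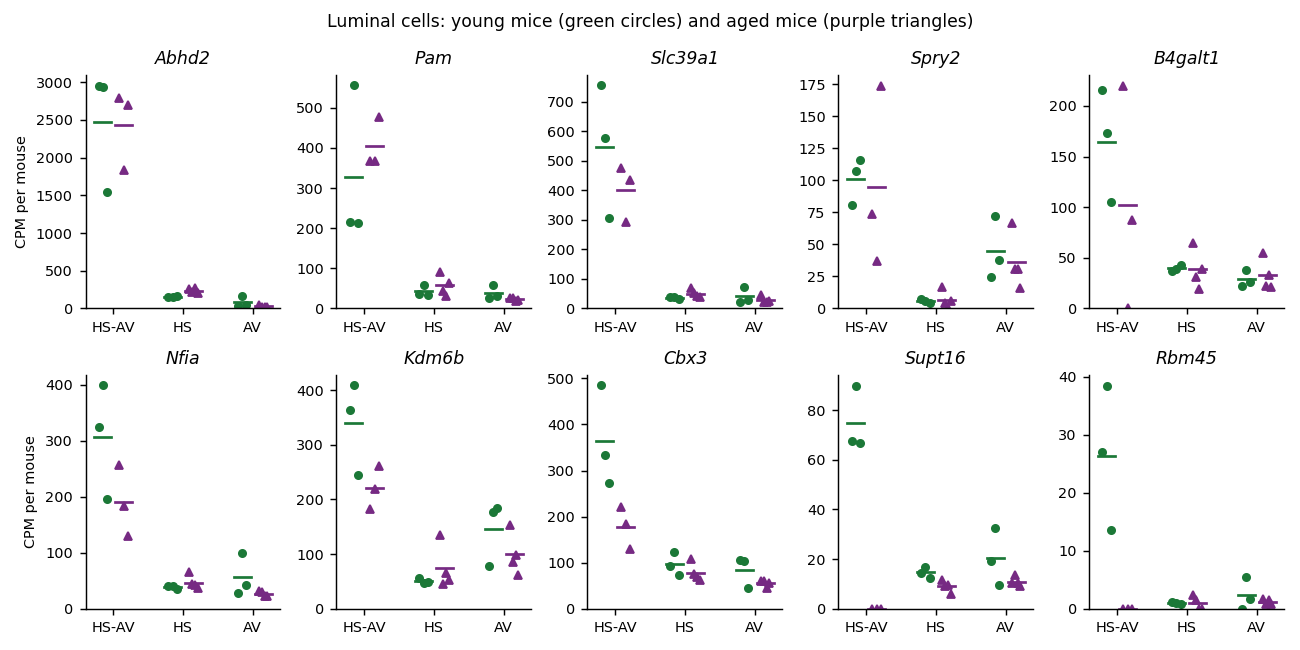
CPM of each of the 10 genes in HS-AV, HS and AV cells, with 1 point per mouse, green circles for young and purple triangles for aged mice, and lines at the means. In young mice HS-AV cells lie above HS and AV cells for all 10 genes, and in aged HS-AV cells Supt16 and Rbm45 are at 0.

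Like most genes, most relatives and partners of the 10 genes were not higher in HS-AV cells. Of 53 such genes, including other zinc transporters, Sprouty and Spred proteins, galactosyltransferases, nuclear factor I genes and Polycomb genes, 4 were above both HS and AV cells in every young mouse (Slc39a10, Spred1, Cbx5 and Tardbp), against the 5.29% of all genes given above. The median level of the 52 detected genes in HS-AV cells was 0.808 of the higher of HS and AV cells, and that of all 12724 genes with a value was 0.771. The highest was the zinc importer gene Slc39a10, at 14.8 ± 10.8 CPM (SD, n = 3) and 3.39-fold. Slc39a10 was followed by the Ras inhibitor gene Spred1 (1.53-fold), the HP1 gene Cbx5 (1.48-fold), the galactosyltransferase gene B4galt7 (1.44-fold) and the Polycomb methyltransferase gene Ezh1 (1.41-fold). This ranking rests on few UMIs. Slc39a10 had 27.0, 6.41 and 10.9 CPM in Young A, B and C, and the Young A value stands for 2 UMIs. B4galt7 and Ezh1 were each above both classes in only 2 of 3 mice. Of the other nuclear factor I genes, Nfib was at 0.504 of the AV level and lower in HS-AV than in AV cells in all 3 mice. Nfix was at 0.794, but above AV cells in Young A (175 against 129.8 CPM). Nfic was at 1.11-fold (47.4 against 42.6 CPM) and above both classes in 2 of 3 mice.

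Across all 13 cell types of young mice, HS-AV cells had the highest mean for 9 of the 10 genes, and for 6.63% of 15771 genes. Abhd2 averaged 2479 CPM there and 185 ± 84.2 CPM (SD, n = 3) in T and B cells, the next type, which is 13.4-fold less. Slc39a1 was followed by pericytes at 136 ± 116 CPM, 4.01-fold less, and Rbm45 by pericytes at 2.83 ± 4.91 CPM, 9.30-fold less. Nfia was followed by lymphatic endothelial cells (1.82-fold less, n = 2, with only 5 cells in Young A and 3 in Young C). Cbx3 was followed by T and B cells (1.73-fold less). For these 5 genes the gap to the next type was larger than the larger of the SDs. The share of all genes with such a gap was not taken.

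The gap was within the larger SD for the other 4 genes that were highest in HS-AV cells. Pam was followed by pericytes at 157 ± 102 CPM, Spry2 by pericytes at 67.7 ± 54.4 CPM, B4galt1 by NK cells at 142 ± 78.9 CPM and Supt16 by T and B cells at 66.3 ± 96.8 CPM. Young A, B and C had only 9, 3 and 16 NK cells and 4, 8 and 8 T and B cells. Means of these types, also those next to Abhd2 and Cbx3, therefore rest on few UMIs. Supt16 ranged from 0 to 177 CPM in T and B cells of the young mice. Kdm6b ranked 3 of 13 in young mice, at 340 CPM, below vascular endothelial cells (379 ± 92.0 CPM), from which it differed by less than the SD, and pericytes (554 ± 196 CPM), from which it differed by more than the larger SD. With the 16 aged HS-AV cells added and both ages averaged, HS-AV cells were highest for 7 genes, and for 8.84% of 15695 genes. Spry2 then had 98.0 ± 46.5 CPM in HS-AV cells (n = 6) and 98.3 ± 55.4 CPM in fibroblasts (n = 7), and Supt16, with no UMI in the aged cells, 37.3 ± 41.7 CPM against 40.5 ± 67.8 CPM in T and B cells. In the immune types over both ages, Rbm45 had 0 counts in 4 of 5 types and Pam was lowest in Mb macrophages at 0.825 CPM.

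**Figure D2:**
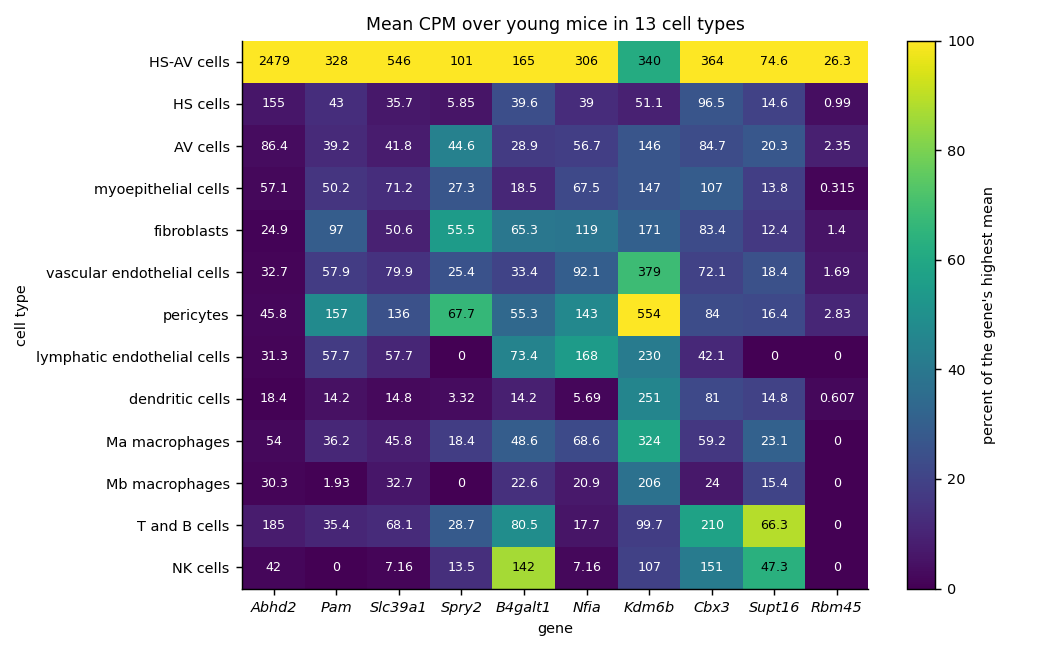
Mean CPM over young mice of the 10 genes (columns) in the 13 cell types (rows), with the mean printed in each cell and the color giving its percent of the highest mean of that gene. The HS-AV row is brightest for 9 genes, while Kdm6b is brightest in pericytes at 554 CPM.

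The patterns of the 10 genes over the 80 sums of mouse and cell type were compared as log2(CPM + 1). Pearson correlations between pairs ranged from -0.06 (Slc39a1 with B4galt1) to 0.70 (Pam with Nfia), given as a description since sums of 1 mouse share a library. The sums also include the young HS-AV, HS and AV cells by which the genes were chosen. A shared height in HS-AV cells is therefore built into these correlations and into the mean used next. Among 6457 other genes of at least 10 CPM in HS-AV cells, those most like the mean of the 10 genes were Rbfox2 (r = 0.76), a splicing regulator, Ctnnd1 (r = 0.73), which encodes p120 catenin, Zcchc14 (r = 0.72), Lzts2 (r = 0.72) and Tbx3 (r = 0.70), a transcription factor of mammary development. Of these, Rbfox2 averaged 47.2 CPM in HS-AV, 25.7 CPM in HS and 16.4 CPM in AV cells, and Lzts2 was not higher in HS-AV (63.8 CPM) than in HS cells (80.7 CPM).

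In single cells of young mice, Abhd2 was detected (at least 1 UMI) in 95.1% ± 7.82 (SD, n = 3) of the HS-AV class, 49.9% ± 2.25 of the HS class and 20.5% ± 4.75 of the AV class. Slc39a1 was detected in 88.8% ± 12.8, 18.5% ± 0.196 and 17.8% ± 8.01. Detection of the others in HS-AV cells ranged from 14.6% ± 5.20 for Rbm45 to 81.0% ± 9.87 for Cbx3. In dendritic cells, taken after seeing the values as the type with the lowest Abhd2 level, 7.52% of 226 cells had an Abhd2 UMI (95% Wilson interval 4.75 to 11.7%, which like all such intervals covers counting error only), at a median of 4648 UMIs. For Spry2 the share in dendritic cells was 1.77% (0.690 to 4.46%). The 3.56% of HS cells lay within that interval, whereas 16.9% of AV cells lay above it. For Rbm45 the share in dendritic cells was 0.442% (0.0782 to 2.46%), and both HS (0.664%) and AV cells (0.973%) lay within that interval. The dendritic cells were of both ages, were not thinned and were shallower than HS (7277 UMIs) and AV cells (6632 UMIs). Lying within the interval therefore does not show that a gene is at background in HS cells. Over both ages Spry2 averaged 6.34 CPM in HS cells, 1.99 CPM in dendritic cells and 0 CPM in Mb macrophages. Kdm6b was detected in 60.6% of dendritic cells, so that type gives no background for it.

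HS-AV cells are shallower than HS and AV cells. With every cell thinned to 2000 UMIs, Abhd2 was detected in 92.0% ± 12.6 of HS-AV, 22.4% ± 1.62 of HS and 10.6% ± 5.83 of AV cells, and all 10 genes kept a higher mean share in HS-AV cells. The lowest was Rbm45, at 3.98% ± 4.25, with 0 cells in Young A.

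**Figure D3:**
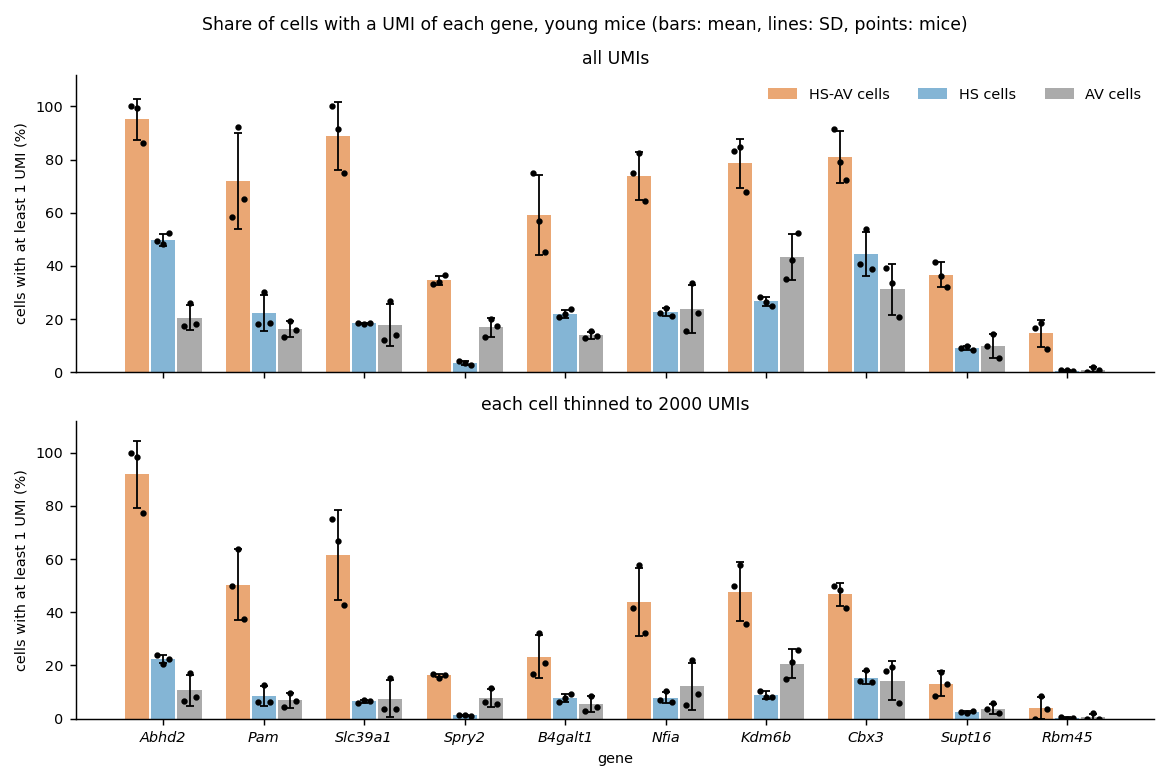
Percent of cells with at least 1 UMI of each gene in HS-AV (orange), HS (blue) and AV (gray) cells of the 3 young mice, with bars for the mean, lines for the SD and points for the mice. The upper panel uses all UMIs and the lower panel cells thinned to 2000 UMIs, where Abhd2 is at 92.0% of HS-AV cells.

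The number of the 10 genes found per cell is the sum of their detection shares, so a higher number in young HS-AV cells follows from the choice. A young HS-AV cell held UMIs of 6.34 ± 0.70 of the 10 genes (SD, n = 3), an HS cell of 2.20 ± 0.15 and an AV cell of 1.94 ± 0.35. At least 5 of the genes were found in 83.3%, 96.9% and 70.4% of HS-AV cells of Young A, B and C, in 6.64 to 10.5% of HS cells and in 4.86 to 17.3% of AV cells, the highest AV share being that of Young B. After thinning, the means were 3.99 ± 0.74, 0.811 ± 0.0607 and 0.895 ± 0.376 genes per cell. In Young C 16 of 115 HS-AV cells, and in Young B 1 of 130, had no Abhd2 UMI.

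Whether the genes were found in the same HS-AV cells was described by comparing pairs with the product of the shares of both genes in the same mouse, after thinning and for pairs with at least 5 expected cells. Pairs with Abhd2 were left out, since it was in nearly every thinned cell of Young A and B, where such a ratio must be near 1. In Young B the median ratio of observed to expected cells over the other 32 pairs was 0.993, with 15 above 1. In Young C it was 1.13 over 24 pairs, of which 20 were above 1. Slc39a1 and Pam were found together in 23 cells of Young C against 18.3 expected, and in 56 cells of Young B against 55.5. The 12 cells of Young A gave no such pair. The variance of the number of genes per thinned cell was 1.07 and 1.83 times that of independent detection in Young B and C. After thinning, most pairs were thus above expectation in 1 of the 2 mice with enough cells. In Young B, 23 of 36 unthinned pairs were above 1 (median 1.00), and 17 of 23 when 2 UMIs were required (median 1.08). With Abhd2 kept, thinned medians in HS cells were 1.45, 1.58 and 1.54 in Young A, B and C, over 7, 5 and 15 pairs. In HS-AV cells they were 0.996 in Young B and 1.17 in Young C, and 1.34 over 5 pairs in AV cells of Young C. An excess of pairs was therefore not particular to HS-AV cells.

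In HS-AV cells of aged mice, Abhd2 had 2787, 1832 and 2694 CPM in Aged A, B and D, within the young range, and was found in 16 of 16 cells. Slc39a1 had 477, 293 and 434 CPM, and Pam 367, 366 and 478 CPM. Cbx3 had 220, 183 and 130 CPM, below each young mouse (272 to 486 CPM). These Cbx3 values rest on 14 UMIs in all. Their pooled level of 180 CPM had a 95% counting interval of 98.7 to 303 CPM, which reached into the young range. Supt16 and Rbm45 had 0 UMIs in all 3 aged mice, each of which had 23018 to 27288 UMIs in these cells. Over the 3 mice, 0 of 77573 UMIs allows up to 38.7 CPM at 3 counts. Supt16 lay below the young range of 66.7 to 89.7 CPM by that limit, where 5.18 to 6.96 UMIs would have been counted. For Rbm45 the young range of 13.6 to 38.4 CPM is within the limit, so a lower level was not detectable at this depth. B4galt1 had 6, 0 and 2 UMIs. No test was made of these 16 cells.

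Age was then compared in 6 other cell types, with counts summed per mouse. A gene was called at an adjusted p under 0.05 (edgeR quasi-likelihood, Benjamini-Hochberg over all genes tested) and a difference of at least 1.5-fold. Bulk sums cannot tell fewer expressing cells from less RNA per cell. In myoepithelial cells, 9 of the 10 genes passed the filter on low counts (all but Rbm45), 2 rose and 1 fell. Over all 6740 genes tested, 12.8% were called higher and 14.8% lower in aged mice, so 3 of 9 is near the background.

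Spry2 in myoepithelial cells had 19.8, 39.3 and 22.7 CPM in Young A, B and C and 105, 47.2, 53.8 and 80.4 CPM in Aged A, B, C and D. The groups did not overlap. The log2 difference (aged minus young) was 1.66 ± 0.35 (SE), with an adjusted p of 0.00236 in edgeR, and the adjusted p was 0.0533 without Young A. Supt16 had 17.0, 14.7 and 9.74 CPM in young and 40.4, 32.0, 26.2 and 22.8 CPM in aged mice, a log2 difference of 1.11 ± 0.33 (edgeR adjusted p = 0.0202). Every aged mouse was above every young mouse, but the call was lost without Young A, without Young C and in DESeq2 (adjusted p = 0.0552, 0.0550 and 0.0668). Cbx3 fell, from 76.5, 152 and 90.9 CPM to 59.7, 35.8, 26.2 and 29.1 CPM, with no overlap, a log2 difference of -1.29 ± 0.28 and an edgeR adjusted p of 0.00283, and it was called under all 15 alternatives. The other 6 genes had differences from -0.79 ± 0.35 (Pam) to 0.59 ± 0.26 (Kdm6b) and did not pass. Summed markers of myoepithelial cells were 14588 to 22224 CPM in young and 11417 to 14160 CPM in aged mice, all 7 detected in each, and mitochondrial transcripts made up 4.50 to 6.16% and 3.12 to 3.94% of UMIs; their part in these differences was not tested.

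Of the 35 relatives and partners tested in myoepithelial cells, 5 rose (14.3%) and 7 fell (20%), against 12.8% and 14.8% of all genes. Those that rose were, of the 4 genes of the Spry2 pathway tested, Spred2 (log2 difference 1.27 ± 0.36) and Dusp6 (0.75 ± 0.21), the ERK phosphatase, together with the peptide convertase gene Pcsk5 (1.65 ± 0.38), the metal importer gene Slc39a8 (1.78 ± 0.62) and Lalba (3.76 ± 1.20), the alpha-lactalbumin of AV cells. Those that fell were the 3 nuclear factor I genes tested as relatives of Nfia, namely Nfib (-0.999 ± 0.19), Nfic (-1.19 ± 0.31) and Nfix (-1.18 ± 0.20), 3 of the 5 hydrolase genes tested, Abhd4 (-1.70 ± 0.30), Abhd16a (-1.01 ± 0.30) and Abhd17a (-1.26 ± 0.27), and the zinc exporter gene Slc30a1 (-1.74 ± 0.40). Nfia itself had a difference of -0.36 ± 0.32 and was not called (adjusted p = 0.436 in edgeR). Markers of AV cells summed to 1347 to 1427 CPM in young and 1025 to 1680 CPM in aged myoepithelial cells, and their part in the Lalba value was not tested.

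In vascular endothelial cells, 4 of the 9 genes tested rose and 0 fell, against 14.7% and 12% of 7864 genes. Pam had 62.2, 72.9 and 38.5 CPM in Young A, B and C and 125, 133, 66.0 and 91.4 CPM in Aged A, B, C and D, a log2 difference of 1.15 ± 0.25 (edgeR adjusted p = 0.00358). Aged C lay within the young range. Slc39a1 had 67.5, 101 and 71.5 CPM in young and 126, 84.5, 162 and 139 CPM in aged mice, 1.02 ± 0.24 (edgeR adjusted p = 0.00542), and only Aged B lay within the young range. Both were called under all 15 alternatives. Spry2 (0.89 ± 0.32, edgeR adjusted p = 0.0487) and B4galt1 (0.73 ± 0.23, edgeR adjusted p = 0.0267) also rose, from 25.4 to 37.5 and from 33.4 to 42.4 CPM in the mean, with overlapping groups.

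The scaling mattered most in this cell type. The factors of the trimmed mean of M values (TMM) raised the median log2 difference of all genes by 0.36 over scaling by library totals, under which 679 genes were called higher and 2347 lower in place of 1155 and 944. Under library totals Spry2 (0.53, adjusted p = 0.163) and B4galt1 (0.37, adjusted p = 0.190) lost their calls and Abhd2 was called lower (-0.77, adjusted p = 0.0427). With TMM, Abhd2 had a difference of -0.41 ± 0.30 and was not called, although its CPM did not overlap, at 26.2 to 43.0 in young and 11.6 to 26.03 in aged mice. Spry2 also lost its call in DESeq2 and without Aged C, Aged D, Young A or Young C in turn (edgeR adjusted p up to 0.200), and B4galt1 in DESeq2 and without Aged D, Young A or Young B (up to 0.138). Immune markers (Ptprc, Cd74 and Lyz2) summed to 197 to 599 CPM in young and 619 to 8700 CPM in aged vascular endothelial cells, pericyte markers to 98.6 to 346 CPM and 5.59 to 66.8 CPM. The mean of B4galt1 over both ages was 104 CPM in NK cells and 102 CPM in T and B cells, above its level in vascular endothelial cells, and 26.9 to 48.6 CPM in the other 3 immune types. Spry2 averaged 44.9 CPM in NK cells and 0 to 18.4 CPM in the others. Pam averaged 0.825 to 36.2 CPM in the 5 immune types, with 66.1 CPM in NK cells of 2 aged mice, and Slc39a1 4.30 to 45.8 CPM. The part of immune transcripts in these differences was not tested.

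Of the 41 relatives and partners tested in vascular endothelial cells, 4 rose (9.76%) and 7 fell (17.1%), against the 14.7% and 12% of all genes. Of the 3 other galactosyltransferase genes tested, B4galt3 (0.77 ± 0.21) and B4galt5 (1.61 ± 0.31) rose and B4galt4 had -0.65 ± 0.24 and was not called. Also called higher were Spred1 (0.77 ± 0.20) and Cpe (2.63 ± 0.52), a carboxypeptidase that trims peptides before amidation. Of the 5 genes of the Spry2 pathway tested, Spry1 (-0.64 ± 0.18) and Dusp6 (-0.69 ± 0.20) fell, as did 3 of the 8 zinc transporter genes, Slc39a8 (-1.18 ± 0.28), Slc39a10 (-0.87 ± 0.21) and Slc30a1 (-1.56 ± 0.31). Abhd17a (-1.40 ± 0.18) and Kdm6a (-1.05 ± 0.29), the demethylase gene related to Kdm6b, also fell.

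In fibroblasts, Spry2 was the 1 gene of 8 tested that was called. The background was 2.07% of 5513 genes higher and 1.11% lower. Spry2 had 36.7, 63.4 and 66.3 CPM in Young A, B and C and 114, 167, 177 and 64.0 CPM in Aged A, B, C and D. Aged D lay within the young range. The log2 difference was 1.30 ± 0.32 (edgeR adjusted p = 0.0448). The call was lost when any mouse but Aged D was left out (adjusted p = 0.0597 to 0.117) and under library totals (0.0530). The aged mice had 15 to 121 fibroblasts each, and their summed fibroblast markers were 3963 to 5603 CPM against 6491 to 9644 CPM in young mice. Slc39a1 had a difference of 0.99 ± 0.31 and Abhd2 of 0.88 ± 0.36, neither called (edgeR adjusted p = 0.101 and 0.187).

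In pericytes 0 of 6 genes tested were called (edgeR), against 7.19% of 2601 genes higher and 4.61% lower. The unadjusted p was under 0.05 for 1, Pam (-0.95 ± 0.43), and DESeq2 called 0. Kdm6b, which was highest in pericytes of all types, had 398 to 773 CPM in young and 305 to 590 CPM in aged mice (-0.42 ± 0.28). In Mb macrophages only Kdm6b could be tested, with a difference of 0.12 ± 0.47 and no call by edgeR or DESeq2, against 0.931% of 859 genes higher and 0.233% lower. In T and B cells 0 of the 10 genes passed the filter, and 0.219% of 457 genes were called higher and 0.438% lower. None of the 53 relatives and partners was called in fibroblasts, pericytes, Mb macrophages or T and B cells.

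**Figure D4:**
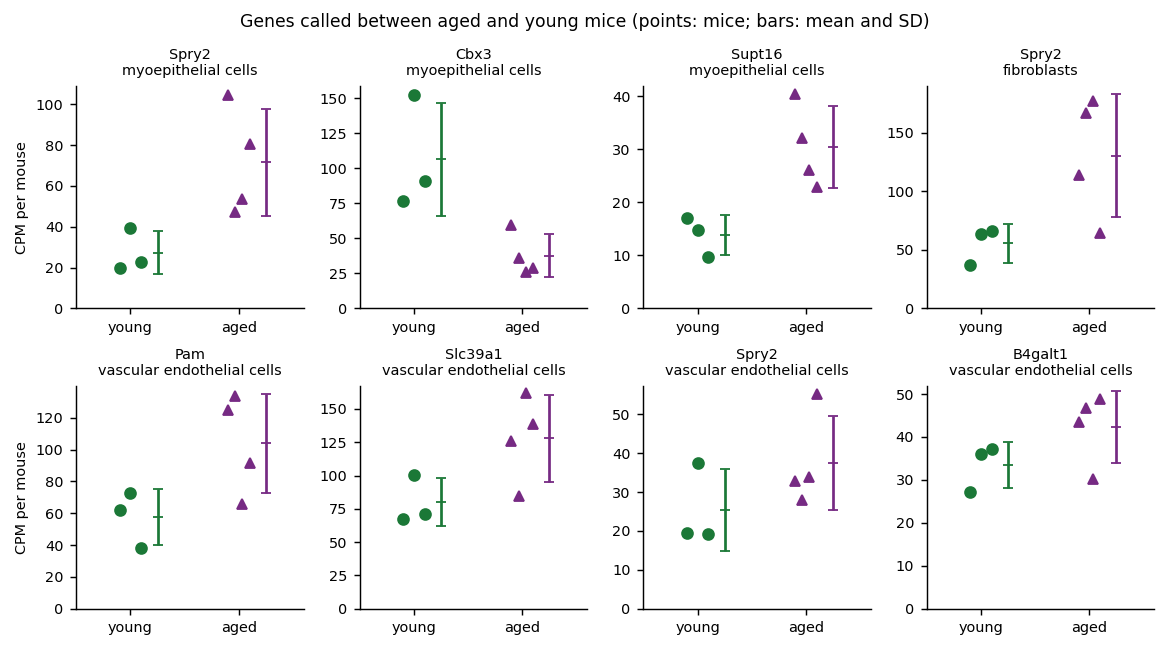
CPM per mouse of the 8 calls between aged and young mice, with green circles for 3 young mice, purple triangles for 4 aged mice and bars for the mean and SD. The groups separate fully for Spry2, Cbx3 and Supt16 in myoepithelial cells and overlap in the other panels.

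**Figure D5:**
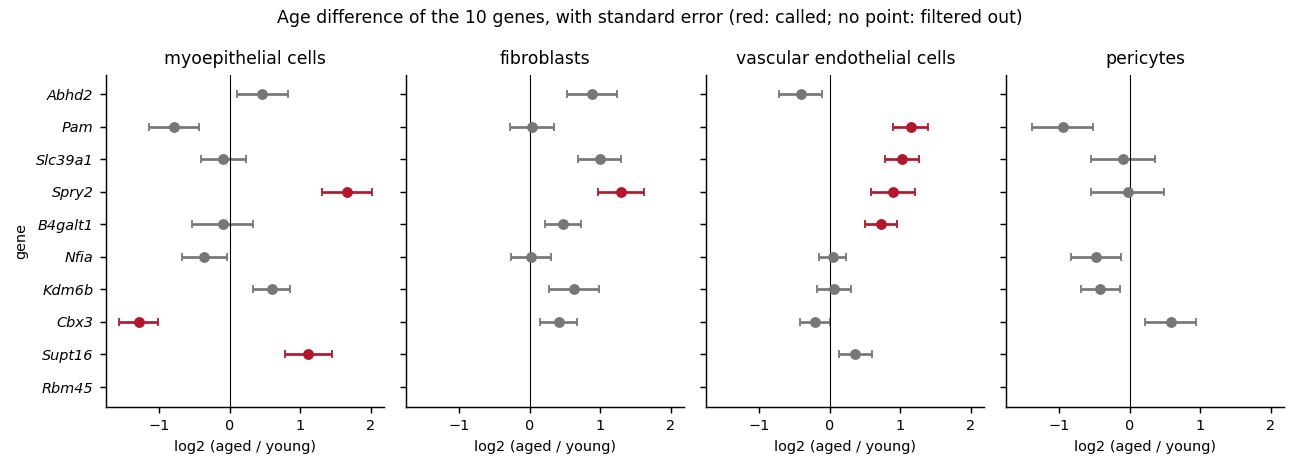
Log2 difference (aged over young) with its standard error for each of the 10 genes in 4 cell types, red where the gene was called. Spry2 is right of 0 and red in 3 cell types, at 1.66, 1.30 and 0.89, and near 0 in pericytes, at -0.03 ± 0.52.

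Across these types Spry2 was called higher in aged myoepithelial, fibroblast and vascular endothelial cells. Whether its difference differs between types was not tested. None of the genes chosen as high in HS-AV cells was called in opposite directions in 2 types. Among the relatives and partners, Dusp6 and Slc39a8 were called higher in aged myoepithelial cells and lower in aged vascular endothelial cells.

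In HS and AV cells, whose young levels entered the choice of the genes, age differences are given with no test. In HS cells Abhd2 had 152, 152 and 160 CPM in Young A, B and C and 259, 214, 265 and 200 CPM in Aged A, B, C and D, with no overlap and a log2 difference of 0.70 ± 0.15 (SE). Slc39a1 (0.64 ± 0.18) was also higher in each aged mouse, at 39.0 to 68.3 against 32.2 to 37.9 CPM. Supt16 (-0.52 ± 0.26) was lower in each aged mouse, at 5.91 to 11.4 against 12.3 to 17.0 CPM. In AV cells all 10 genes overlapped between the ages. Of the 53 relatives and partners, 2 were higher and 4 lower in every aged mouse in HS cells, and 2 and 7 in AV cells. The share of all genes without overlap was not taken, so these counts have no background beside them. Differences of the 10 genes in AV cells ranged from -1.32 ± 0.49 for Abhd2, with 169 CPM in Young B and 37.5 and 52.5 CPM in Young A and C, to 0.50 ± 0.36 for B4galt1. Of the relatives and partners, the Ras inhibitor gene Spred3 rose in HS cells (1.30 ± 0.34, edgeR adjusted p = 0.0485), 1 of 38 tested, against 3.93% of 8457 genes higher and 2.33% lower. In AV cells 0 were called by edgeR, against 2.9% of 11012 genes higher and 3.26% lower.

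The deposited cell-cycle phase was compared within each mouse, with cells called S or G2M set against those called G1. These calls come from a score and are not a count of dividing cells. The sum of 10 cell-cycle genes chosen after the data were seen (Mki67, Top2a, Cdk1, Ccnb1, Birc5, Pcna, Mcm2, Mcm5, Mcm6 and Tyms) was higher in S or G2M cells in 7 of 7 mice, with a median of 109 against 35.6 CPM in AV cells and 124 against 30.4 CPM in myoepithelial cells. Genes of this kind set the phase score, so this is no independent check. In AV cells 0 of 9 genes tested were called (edgeR), against 0.384% of 10675 genes higher and 0.0656% lower, and DESeq2 called 0. Spry2 had a difference of -0.29 ± 0.10 (S or G2M minus G1), the 1 gene with an unadjusted p under 0.05, and an adjusted p of 0.355 in edgeR over 7 mice. The other 8 genes differed by -0.14 to 0.11. In myoepithelial cells 0 of 9 genes were called by edgeR or DESeq2, against 0.199% of 5018 genes higher and 0.0199% lower, and Spry2 again had the 1 unadjusted p under 0.05 (-0.34 ± 0.16, adjusted p = 0.899 in edgeR).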

How the data were processed

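The authors mapped reads of 10x 3′ v2 libraries to mm10 with Cell Ranger 2.0, filtered the cells and deposited raw counts of UMIs for every gene and cell. The cell types and phases deposited by the authors were used. The authors also deposited, per cell, the fraction of its UMIs from mitochondrial genes and Seurat scores for S and G2M, of which only the resulting phase was used. The 10 genes, their 53 relatives and partners and the marker lists were chosen with earlier results of these data known. The text names the 10 genes throughout, every relative called, the 5 relatives highest in HS-AV cells and the 5 genes of most similar pattern.

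Sums of counts over the cells of a type in each mouse (at least 3 cells) were given as CPM. For tests, genes of low counts were removed by filterByExpr, TMM factors were set, and the quasi-likelihood test of edgeR 4.0.16 (R 4.3.3) was run, with p-values adjusted over all genes (Benjamini-Hochberg). The cell-cycle fit had the mouse as a block. The mouse was the replicate, with 3 young and 4 aged mice of 4758.5 to 7109.5 median UMIs per cell, and the same letter in both groups does not mean the same animal. DESeq2 1.42.0, RLE factors, no filter, no ribosomal protein or mitochondrial genes, other cell minimums, no doublets, left-out mice and a block of the letters were alternatives, and library totals, levels in young mice alone, pairs without Abhd2 and G2M against G1 cells were added after seeing the data. Doublets were called with Scrublet in scanpy 1.11.5 (expected rate 0.06) and kept. Thinning drew 2000 UMIs per cell. The fits were tested on simulated data. The strand used in counting is not given in the sources used here. Protein sequences were not used here.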

Additional observations from a re-analysis of the deposited data

Results flagged for a closer look

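Aged A stood apart from the other 3 aged mice in 3 of the 52 groups of 4 mice checked for the 10 genes, and chance flags about 1 in 20 groups. Slc39a1 in myoepithelial cells was 104 CPM in Aged A against 47.5 CPM in the next aged mouse. Slc39a1 in AV cells was 44.6 CPM in Aged A against 24.01 CPM. Kdm6b in pericytes was 590 CPM in Aged A, from 70 UMIs, against 309 CPM.

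Abhd2 was lower in every aged mouse than in every young mouse in vascular endothelial cells (log2 difference -0.41) and higher in every aged mouse in HS cells (0.70). In vascular endothelial cells the lowest young and highest aged values were 26.2 and 26.03 CPM. Abhd2 was not called there with TMM (edgeR adjusted p = 0.338). Supt16 was higher in every aged mouse in myoepithelial cells (1.11) and lower in every aged mouse in HS cells (-0.52). The difference between the cell types was not tested in either case. In both cases the young HS levels had entered the choice of the genes, as a side on which they were low.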

How the results depend on the processing

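Of the calls with age, Cbx3 in myoepithelial cells and Pam and Slc39a1 in vascular endothelial cells held under all 15 alternatives, Spry2 and Supt16 in myoepithelial cells under 14 and 12, B4galt1 in vascular endothelial cells under 9, and Spry2 in fibroblasts and vascular endothelial cells under 8 each. No called difference changed sign. The number of the 10 genes called in myoepithelial cells (3) fell to 1 with a mouse left out (range 1 to 4, lowest without Young A). In fibroblasts (1) it was 0 under library totals and 0 to 1 with a mouse left out. In vascular endothelial cells (4) it was 2 in DESeq2 and 2 to 4 with a mouse left out, the lowest without Aged D or Young A. In pericytes (0) it was 1, Pam, with no filter on low counts. Of the relatives and partners, 1 was called in HS cells, against 0 in DESeq2, 5 with no filter and 0 to 5 with a mouse left out. In AV cells 0 were called, against 2 under library totals, 2 with no filter and 0 to 1 with a mouse left out. The cause of these changes was not tested. The mean number of genes per young HS-AV cell, 6.34, was 3.99 after thinning to 2000 UMIs and 4.14 when 2 UMIs were required, both of which count fewer UMIs. The cell-cycle results kept 0 calls under every alternative that was run.

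Same-lettered young and aged mice did not deviate together: over 24 pairs the correlation of their deviations from the group means ran from -0.34 to 0.25, with a median of 0.00. With a replicate block of the letters, 2 of the 10 genes were called in vascular endothelial cells and 0 relatives in HS cells, and calls over all genes in myoepithelial cells went from 1860 to 1349. Requiring 10 cells per mouse could not be fitted for Mb macrophages and T and B cells. Library totals gave more lower calls than TMM in myoepithelial (1151 against 997), fibroblast (100 against 61), HS (281 against 197), AV (851 against 359) and pericyte fits (226 against 120), with 654, 98, 181, 188 and 118 higher calls. Depth limits the 16 aged HS-AV cells, Rbm45 in all types, and T and B cells and Mb macrophages, in which 0 and 1 of the 10 genes could be tested.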
